A study of Homo sapiens with 6 samples.

Results

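A group of 10 cytokine and feedback genes of the NF-kB pathway was examined in a single human gastric cancer line, HGC27, in the presence or absence of a forced FN1 3'-UTR transcript. They were the chemokine genes CXCL1, CXCL2, CXCL3, CCL2 and CCL20, the cytokine genes IL6, LIF and IL1A, and the feedback genes NFKBIA and TNFAIP3. The members were chosen by name, with earlier results of these data known, so counts of called members are descriptions. Of the 10, 9 had a row among the 39739 rows of the expression tables. CCL20 was not analysed here. The study asked which transcripts differ when the 3' untranslated region of the fibronectin gene FN1 is overexpressed. Each of the 2 groups, FN1 3'-UTR and control, gave 3 RNA-seq libraries. The FN1 3'-UTR cells carried the segment stably after infection with lentiviral particles and, per the study's methods, selection with puromycin. Both groups were grown in RPMI-1640 medium with fetal bovine serum. The labels do not say what vector the control cells carried, and do not say whether the replicates came from separate cultures, so each p-value measures the spread between these libraries only.

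NF-kB is a family of paired transcription factors that is held in the cytoplasm by IkB proteins. Ligands such as TNF, IL-1 and bacterial products activate the IKK kinase complex, which marks IkB for destruction and frees NF-kB to enter the nucleus. Its targets include chemokines that recruit neutrophils and monocytes, cytokines that act on neighbouring cells, and inhibitors such as IkB alpha and A20 that switch the pathway off again. In gastric mucosa the pathway is best known for the response to Helicobacter pylori.

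The libraries held from 16357085 to 37037532 reads assigned to genes, recovered from the deposited RPKM values (reads per kilobase of exon and per 1000000 assigned reads). The 3 FN1 3'-UTR libraries held 69982178 reads together and the 3 control libraries 90187729. A count of 3 reads in 1 library corresponded to between 0.081 and 0.183 reads per 1000000, and read counts below are therefore compared as rates or as RPKM. The FN1 row, which spans the whole gene and does not separate the introduced segment from the cell's own transcript, stood at 0.777, 0.745 and 0.819 RPKM in the FN1 3'-UTR libraries and at 0.543, 0.474 and 0.532 RPKM in the control libraries. FN1 was 0.52 ± 0.11 (SE) higher on the log2(RPKM + 0.1) scale (limma, adjusted p = 0.0292), where a gene was called if its Benjamini-Hochberg adjusted p over all tested genes was under 0.05. This call was lost in each of the 6 fits that left out 1 library, with adjusted p up to 0.1 without control replicate 2.

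The cells' markers moved with the groups. The summed RPKM of 6 epithelial markers ranged from 18.4 to 27.3 in the FN1 3'-UTR libraries and from 2.93 to 3.30 in the control libraries. KRT8 made up most of the sum. Of the 6, 5 (EPCAM, CDH1, KRT8, KRT18 and KRT19) were called higher, beside 5.62% of all tested genes. The other, CLDN4, was not called, at 0.195 to 0.313 against 0.286 to 0.352 RPKM (log2 difference -0.20, limma, adjusted p = 0.545). KRT19 reached the level required for a test (RPKM of at least 0.1 in at least 3 libraries) through the FN1 3'-UTR libraries only. Its control values were 0.0575 to 0.0972 RPKM, so the count of higher calls is a description. EPCAM, an adhesion protein of most carcinomas, stood at only 0.160 to 0.257 RPKM in the control libraries. The summed RPKM of 5 fibroblast markers ranged from 59.8 to 61.1 against 37.2 to 46.1, with LUM and COL1A1 called higher and making up most of the sum. PDGFRA was lower in every FN1 3'-UTR library, at 1.87 to 2.16 against 2.23 to 2.37 RPKM, and was not called by limma (adjusted p = 0.117) but called lower by voom. PDGFRB stood at 0.138 to 0.206 against 0.132 to 0.176 RPKM. The summed RPKM of 6 leukocyte markers ranged from 2.08 to 2.31 against 2.34 to 2.72. CD68 made up most of this sum, at 1.81 to 2.15 against 2.06 to 2.37 RPKM, and was not called (limma, adjusted p = 0.318). PTPRC, the pan-leukocyte marker, had 6 reads in the FN1 3'-UTR libraries and 7 in the control libraries. The 4 endothelial markers summed to at most 0.0222 RPKM in any library, with PECAM1 at 0 in all 6. The part of these marker differences in the results below was not tested. In bulk RNA, fewer cells of a type and less RNA per cell cannot be told apart.

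The letters through which NF-kB binds DNA are shown first, because they link several of the members. A strong form of the kB site, GGGANTTTCC (N is any base), was searched on both strands from 250 bases before to 50 bases after each start site in the RefSeq promoter table (GRCh38.p14). Entries were found for 8 of the 10 members, and not for CCL2 and LIF. The letters were present in 6 of the 8, beside 0.558% of all 35116 promoter entries. In the lines below the match is in capitals and each sequence is written in the direction of its gene, so that NFKBIA and TNFAIP3 show the reverse complement.
CXCL1, chr4:73869306-73869331: ggaactccGGGAATTTCCctggcccg
CXCL2, chr4:74099256-74099281: ggagctccGGGAATTTCCctggcccg
CXCL3, chr4:74038751-74038776: ggagctccGGGAATTTCCctggcccg
IL6, chr7:22727119-22727144: tcaaatgtGGGATTTTCCcatgagtc
NFKBIA, chr14:35404813-35404838: actggcttGGAAATTCCCcgagcctg
TNFAIP3, chr6:137867184-137867209: gtgactttGGAAAGTCCCgtggaaat
The nearest match began 67 bases and the farthest 81 bases before the start site. The flanks of CXCL2 and CXCL3 were the same 26 letters, and those of CXCL1 differed from each in 1 letter. The looser kB consensus also matched CCL20, at chr2:227813755-227813780, and was held by 7 of the 8 member entries beside 11.3% of all entries.
CCL20, chr2:227813755-227813780: atcaatggGGAAAACCCCatgtggca
Such matches describe letters only. Among genes with an expression test, 80 had a promoter entry with GGGANTTTCC, of which 10 (12.5%) were called higher and 7 (8.75%) lower in the FN1 3'-UTR libraries, beside 7.76% and 10.1% of all 10948 tested genes with a promoter entry. With the members left out, 9 of 78 (11.5%) were called higher and 7 (8.97%) lower. The median log2 difference was -0.01 among genes with the letters and -0.04 among all genes with an entry.

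Of the 9 members with a row, 4 passed the filter on low values (RPKM of at least 0.1 in at least 3 libraries), and all 4 did so in every one of the 6 libraries. CCL2, LIF and NFKBIA were called higher in the FN1 3'-UTR libraries, TNFAIP3 was not called, and none was called lower, with all 4 differences above 0 and 0 lower at an unadjusted p under 0.05 or by voom on the recovered reads. Among all 23299 tested genes, 5.62% were called higher and 7.36% lower, so 1310 genes rose and 1715 fell. Under median-ratio scaling of the libraries the split turned to 1696 higher and 1331 lower, while the calls of the members did not change. The remaining 5 members, CXCL1, CXCL2, CXCL3, IL6 and IL1A, had at most 4 reads in any library.

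CCL2 encodes the chemokine MCP-1, which draws monocytes to a tissue through the receptor CCR2. Its row (chr17:34255218-34257203, plus strand, GRCh38) held 186, 285 and 339 reads in FN1 3'-UTR replicates 1 to 3, or 5.73, 5.88 and 5.85 RPKM. The control replicates held 73, 100 and 173 reads, or 1.65, 1.63 and 2.35 RPKM. The FN1 3'-UTR libraries lay within a narrow band, and all 3 were above the highest control, replicate 3. The mean was 5.82 ± 0.0793 RPKM (SD, n = 3) against 1.88 ± 0.411 RPKM (SD, n = 3), a ratio of 3.10. On the log2(RPKM + 0.1) scale the difference was 1.60 ± 0.14 (SE), with an adjusted p of 0.00217 in limma. Each fit that left out 1 library kept the call, with log2 differences from 1.52 to 1.77.

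LIF encodes leukemia inhibitory factor, a cytokine of the IL-6 family that signals through LIFR and gp130 to STAT3. Its row (chr22:30240447-30246851, minus strand) held 39, 67 and 89 reads in the FN1 3'-UTR replicates, or 0.601, 0.691 and 0.768 RPKM. The control replicates held 23, 29 and 40 reads, or 0.259, 0.237 and 0.272 RPKM. The lowest FN1 3'-UTR library was above the highest control library by more than the range within either group. The means were 0.687 ± 0.0837 and 0.256 ± 0.0177 RPKM (SD, n = 3 each), a ratio of 2.68. The log2 difference was 1.14 ± 0.14 (SE, limma, adjusted p = 0.00633). Because the level of LIF was low, the fitted difference depended on the pseudocount and was 0.42 on the log2(RPKM + 1) scale, where the call remained. LIF shares 175 exon bases with RP1-102K2.8 on the opposite strand, which had 38 reads in the FN1 3'-UTR libraries and 17 in the control libraries. Whether counting used strand is not given in the sources used here, although the library kit was stranded.

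NFKBIA encodes IkB alpha, the inhibitor that holds NF-kB in the cytoplasm and is itself induced by NF-kB. It was the most abundant member per length (chr14:35401511-35404749, minus strand). The FN1 3'-UTR replicates stood at 21.7, 20.7 and 20.4 RPKM with 842, 1199 and 1416 reads. The control replicates stood at 15.4, 15.1 and 15.5 RPKM with 818, 1106 and 1363 reads. The groups did not overlap and the spread within each was small beside the gap. The means were 20.9 ± 0.665 and 15.4 ± 0.204 RPKM (SD, n = 3 each), a ratio of 1.36. The log2 difference of 0.44 ± 0.03 (SE) was the smallest of the 3 called members and had the lowest adjusted p, 0.00146 (limma).

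TNFAIP3 encodes A20, a ubiquitin-editing enzyme that ends signaling from TNF and Toll-like receptors. Its row (chr6:137867188-137883312, plus strand) held 43, 75 and 106 reads in the FN1 3'-UTR replicates, or 0.520, 0.608 and 0.719 RPKM. The control replicates held 44, 72 and 84 reads, or 0.390, 0.463 and 0.449 RPKM. The 3 FN1 3'-UTR libraries were above the 3 control libraries, but the lowest of them was close to the highest control. The means were 0.616 ± 0.0993 and 0.434 ± 0.0385 RPKM (SD, n = 3 each). The log2 difference was 0.42 ± 0.15 (SE), close in size to that of NFKBIA (0.44), with an adjusted p of 0.12 in limma. A test on the recovered reads (limma with voom weights) gave 0.52 ± 0.16 (SE) and an adjusted p of 0.0178, so the call depended on the choice of test. TNFAIP3 shares 95 exon bases with RP11-356I2.4 on the opposite strand, which had 7 reads in each group.

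**Figure D1:**
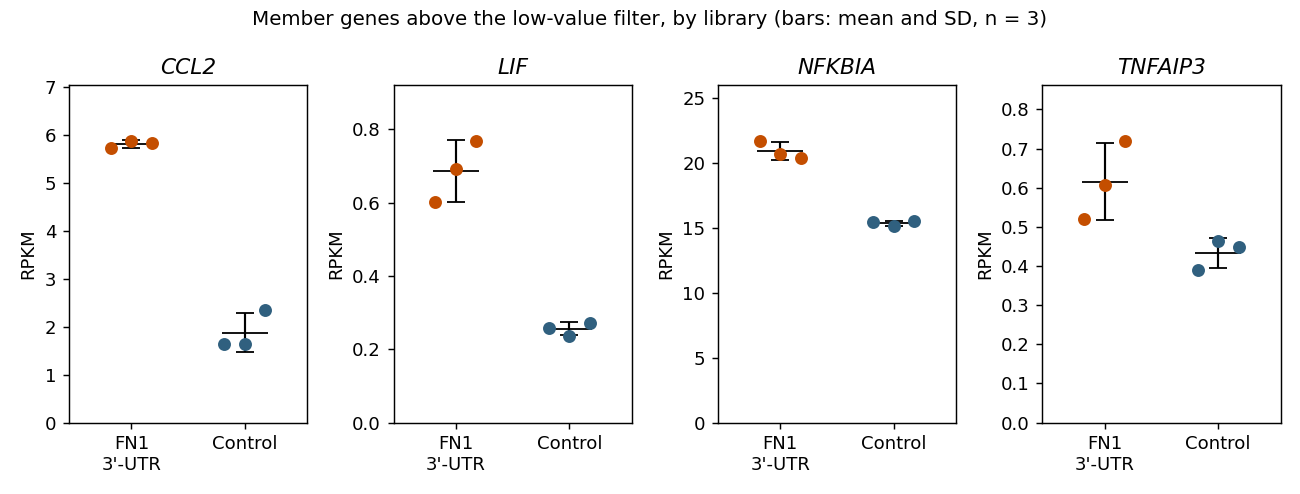
RPKM (linear axis from 0) of CCL2, LIF, NFKBIA and TNFAIP3 in the 3 FN1 3'-UTR libraries (orange points) and the 3 control libraries (blue points), with the mean as a black line and the SD as a bar. In each panel all FN1 3'-UTR points are above all control points, with a wide gap for CCL2 (5.73 to 5.88 against 1.63 to 2.35 RPKM) and a narrow one for TNFAIP3 (0.520 to 0.719 against 0.390 to 0.463 RPKM).

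For all 4 of these genes every FN1 3'-UTR library was above every control library, a pattern held by 14.3% of all tested genes. With 3 libraries a group, an exact two-sided permutation test of a single gene cannot give a p below 0.1, so single genes were judged by the fit over all genes. In the order of levels per length, NFKBIA and CCL2 came first in both groups without overlap in RPKM between neighbours. LIF and TNFAIP3 followed, and their order differed between the groups. In the FN1 3'-UTR libraries LIF had the higher mean RPKM and the ranges of both genes overlapped, whereas in the control libraries TNFAIP3 was above LIF without overlap.

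The 3 GRO chemokine genes, whose products recruit neutrophils through CXCR2, were at the limit of detection. CXCL1 (chr4:73869393-73871242, plus strand) had 0, 1 and 2 reads in the FN1 3'-UTR replicates and 0 reads in all control replicates. CXCL2 (chr4:74097035-74099293, minus strand) had 1, 0 and 1 reads against 0 in all controls. CXCL3 (chr4:74036589-74038807, minus strand) had 0 reads in all FN1 3'-UTR replicates and 1, 1 and 2 reads in the control replicates. CXCL3 was the only member with all FN1 3'-UTR libraries below all control libraries, a pattern held by 21.7% of tested genes. Its 4 control reads came to 0.0444 reads per 1000000, with an exact 95% Poisson interval from 0.0121 to 0.114 that covers counting error only. The 0 reads over the FN1 3'-UTR group had an upper limit of 0.0527 reads per 1000000 by the same exact interval. This limit lies within the control interval, so a difference was not detectable at this depth. The coding sequences of the 3 genes are 324 bases long each and were from 90.7% (CXCL1 and CXCL3) to 94.4% (CXCL2 and CXCL3) identical in GENCODE 29, and how reads matching several of them were counted is not given in the sources used here, so single reads cannot be assigned to 1 of the 3 with confidence.

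IL6 encodes interleukin-6, which signals through IL6R and gp130 to STAT3. Its row (chr7:22725884-22732002, plus strand) held 3, 4 and 1 reads in the FN1 3'-UTR replicates, or 0.0886, 0.0792 and 0.0166 RPKM, and 1 read in each control replicate, or 0.0216, 0.0157 and 0.0130 RPKM. FN1 3'-UTR replicates 1 and 2 were above the controls, and replicate 3 lay among them. As shares of all reads, the sums of 8 and 3 reads gave a ratio of 3.44 with an exact 95% interval from 0.825 to 20.1, which covers counting error only. IL6 shares 428 exon bases with AC073072.5 on the opposite strand, which had 1 and 2 reads. IL1A, which encodes the alarmin interleukin-1 alpha (chr2:112773915-112784590, minus strand), had 1 read in each group, both in replicate 2. With no filter on low values, none of these 5 members passed the threshold in limma, with adjusted p from 0.178 for CXCL3 to 0.954 for IL1A.

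**Figure D2:**
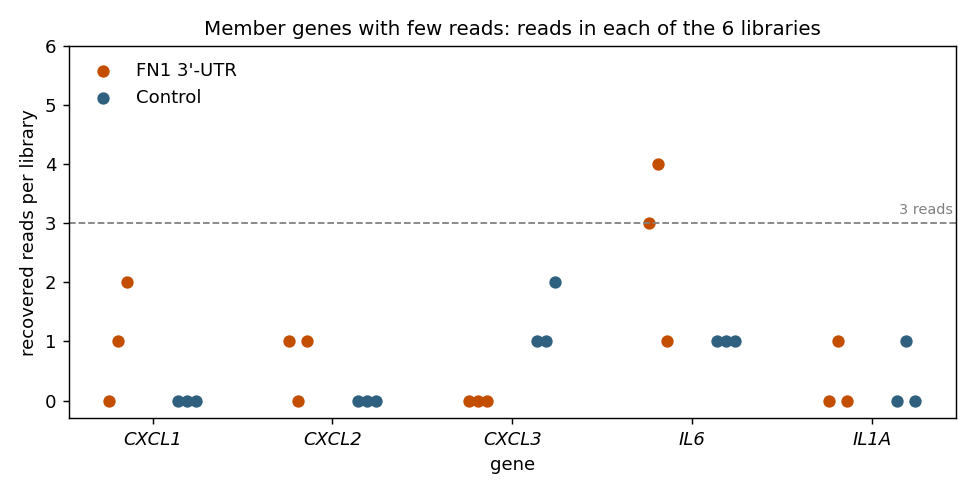
Recovered reads (linear axis) of CXCL1, CXCL2, CXCL3, IL6 and IL1A in each of the 6 libraries, with FN1 3'-UTR libraries in orange and control libraries in blue, and a dashed line at 3 reads. A single point, IL6 in FN1 3'-UTR replicate 2 with 4 reads, is above the line.

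Several of the 10 mRNAs carry a known feature of short-lived cytokine messages, the AU-rich element. The nonamer TTATTTATT was present in the 3'-UTR of 5 of the 10 members in GENCODE 29, beside 7.25% of 18658 protein-coding genes. Counting overlapping matches, CXCL2 held 5, CXCL1 held 3, LIF held 2, and CXCL3 and TNFAIP3 held 1 each. The members' 3'-UTRs held 11.8 matches per 10 kb against 0.676 per 10 kb over all genes. Of the members called higher, LIF (3'-UTR of 3204 bases) held the nonamer, and CCL2 (376 bases) and NFKBIA (502 bases) did not. The 2 matches in LIF and the match in TNFAIP3 are printed because these genes had enough reads to be measured, with the nonamer in capitals.
LIF, chr22:30240958-30240986: ctccgggcccTTATTTATTatttaaacat
LIF, chr22:30240535-30240563: cagattatttTTATTTATTcaatgtcata
TNFAIP3, chr6:137882298-137882326: gtaattcactTTATTTATTttattacaaa

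The study treats the FN1 3'-UTR as a segment that binds microRNAs, and its reporter assays included miR-296-3p, miR-629-5p, let-7i-5p and miR-423-5p. Their mature sequences from RefSeq are given with the seed, bases 2 to 8, in capitals, and no seed is shared between them.
hsa-let-7i-5p: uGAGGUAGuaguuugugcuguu
hsa-miR-423-5p: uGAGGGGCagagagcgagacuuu
hsa-miR-629-5p: uGGGUUUAcguugggagaacu
hsa-miR-296-3p: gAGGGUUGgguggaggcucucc
Letters complementary to these seeds were searched in the members' 3'-UTRs. The let-7i-5p match, CTACCTC, was found in TNFAIP3 and in none of the other 9, beside 8.38% of all genes. The matches of miR-629-5p (6.12% of all genes) and miR-296-3p (7.51%) were each found in LIF and in no other member, and that of miR-423-5p (12.9%) in none. CCL2 and NFKBIA, both called higher, held no match to any of the 4 seeds. The 3'-UTRs differed in length, with 3204 bases in LIF and 1993 in TNFAIP3, but 376 in CCL2 and 502 in NFKBIA. The median over all genes was 822 bases, and the shares of genes above do not allow for length. A match here is a stretch of letters and not a measured binding site.
TNFAIP3, chr6:137882598-137882624: tctgagtgtcCTACCTCcttggagatg
LIF with miR-629-5p, chr22:30243538-30243564: agggcatcgcTAAACCCaaatgggggc
LIF with miR-296-3p, chr22:30242051-30242077: cgccctggaaCAACCCTgcccctgcac

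The rest of the pathway was described from 8 lists of 131 genes, of which 100 passed the filter on low values. Of these 100 genes, 21 (21%) were called higher and 6 (6%) lower, beside 5.62% and 7.36% of all tested genes. Their median log2 difference was 0.02, beside -0.04 over all tested genes. The lists were chosen with earlier results of these data known, so all counts by list are descriptions. The lists of other cytokine and chemokine targets and of intracellular and surface targets held 5 and 6 of the 21 higher calls. Among these, CXCL10, CCL5 and TNFAIP2 are marked below for the filter. The lists of subunits, adaptors and decay regulators had medians near 0. Of the 27 calls, 11 were kept in every fit that left out 1 library, and the named genes among the others are marked below. Of the 21 genes called higher, 5 reached the filter on low values in at most 1 control library, so that the filter itself favoured a higher level in the FN1 3'-UTR libraries. They were TNIP3, CXCL10 and TNFAIP2, in no control library, and LTBR and CCL5, in 1. The counts of higher calls in their lists are descriptions and give no support for a direction of the list.

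Among 14 genes for NF-kB subunits, other IkB proteins and IKK, 2 were called higher and none lower by limma (1 lower at an unadjusted p under 0.05, 0 by voom), with a median log2 difference of 0.07. Higher calls were 14.3% of the list, beside 5.62% of all tested genes, of which 7.36% were called lower. RELB, the partner of p52 in the noncanonical pathway, ranged from 0.959 to 1.21 RPKM in the FN1 3'-UTR libraries and from 0.384 to 0.632 RPKM in the controls, a log2 difference of 0.89 ± 0.19 (SE, limma, adjusted p = 0.0305). NFKB1, the precursor of p50, ranged from 4.84 to 5.01 RPKM against 4.11 to 4.43 RPKM, a log2 difference of 0.22 ± 0.05 (SE, adjusted p = 0.032). Each of these calls was kept in only 1 of the 6 fits that left out a library, with adjusted p up to 0.0933 for RELB without FN1 3'-UTR replicate 1 and 0.116 for NFKB1 without control replicate 2. RELA, the main activating subunit p65, stood at 15.2 to 16.6 against 16.1 to 17.2 RPKM, with a log2 difference of -0.06 and an adjusted p of 0.42.

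Of 12 tested feedback and ubiquitin-editing genes other than the members, 1 was called higher and 2 lower. These were 8.33% and 16.7% of the list, beside 5.62% and 7.36% of all tested genes. TNIP3, which encodes an A20-binding protein, had 81 reads in the FN1 3'-UTR libraries and 17 in the controls, or 0.282 to 0.326 against 0.043 to 0.0713 RPKM. Its log2 difference was 1.43 ± 0.20 (SE, adjusted p = 0.00865), and it passed the filter through the FN1 3'-UTR libraries only. TNIP2, another A20-binding protein, was lower, at 20.5 to 21.8 against 26.2 to 26.7 RPKM (log2 difference -0.32, adjusted p = 0.00348). OTULIN, a deubiquitinase of linear chains, was also lower by this test (log2 difference -0.24, adjusted p = 0.0274), a call lost in all 6 fits that left out a library, with adjusted p up to 0.0873 without control replicate 2.

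Upstream, 22 of 29 receptor and adaptor genes were tested, with 1 called higher and 2 lower and a median log2 difference of -0.07. These shares, 4.55% and 9.09%, were near those over all tested genes, 5.62% and 7.36%. The count of lower calls depended on the processing, with 6 by voom on the recovered reads (6 also at an unadjusted p under 0.05), 4 with RPKM of at least 1 required, 5 without control replicate 1, and 1 without FN1 3'-UTR replicate 2, control replicate 2 or control replicate 3. The 6 were IRAK4, TRAF2, TRADD, RBCK1, TAB1 and TAB3. LTBR, the lymphotoxin beta receptor, ranged from 0.326 to 0.341 RPKM in the FN1 3'-UTR libraries and from 0.0856 to 0.109 RPKM in the controls, a log2 difference of 1.15 ± 0.17 (SE, limma, adjusted p = 0.0105). TRAF2, an adaptor of TNF receptors, was lower at 5.95 to 6.32 against 7.68 to 8.09 RPKM (log2 difference -0.36, adjusted p = 0.00543). IRAK4, the kinase below IL-1 and Toll-like receptors, ranged from 1.41 to 1.72 against 2.15 to 2.26 RPKM (log2 difference -0.45, adjusted p = 0.0239), a call kept in 2 of the 6 fits without a library and at 0.0779 without control replicate 2. The ligands that classically start the pathway were almost absent. TNF had 3 reads in the FN1 3'-UTR libraries and 1 in the controls, and IL1B had 1 and 4 reads.

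Of the other cytokine and chemokine targets, 7 of 19 were tested and 5 of these were called higher and none lower by limma. Higher calls were 71.4% of the 7, beside 5.62% of all tested genes, of which 7.36% were called lower. CXCL10 and CCL5 reached the filter in at most 1 control library, so this share is a description. CXCL16, a membrane-bound chemokine, was lower at an unadjusted p under 0.05 and was called by voom on the recovered reads. IL32, a cytokine that induces TNF and IL-8 in other cells, differed most, at 2.36, 2.70 and 2.40 RPKM in the FN1 3'-UTR replicates against 0.321, 0.253 and 0.421 RPKM in the controls. Its log2 difference was 2.60 ± 0.16 (SE, limma, adjusted p = 0.00073), and the call was kept in every alternative. CCL5, a chemokine for T cells and monocytes, had 50 against 10 reads, or 0.298 to 0.647 against 0.0215 to 0.125 RPKM (log2 difference 1.80 ± 0.34, SE, adjusted p = 0.0211). Leaving out 1 library kept the call of CCL5 in 2 of 6 fits, with an adjusted p of 0.0709 without control replicate 2. LTB, the ligand of LTBR, ranged from 0.468 to 0.597 against 0.211 to 0.321 RPKM (adjusted p = 0.0332), kept in 1 of 6 such fits, with 0.105 without control replicate 2. CXCL10, which is also an interferon target, rested on 10 reads against 1, a ratio of read shares of 12.9 with an exact 95% interval from 1.83 to 559, and its call (adjusted p = 0.0497) was lost in all 6 fits, reaching 0.141 without FN1 3'-UTR replicate 1. CXCL8, which encodes the neutrophil chemokine IL-8, had 0, 1 and 3 reads in the FN1 3'-UTR replicates and 1, 0 and 0 in the controls, a ratio of shares of 5.15 with an interval from 0.51 to 254.

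The list of intracellular and surface targets had 15 tested genes, with 6 called higher and none lower by limma (1 lower at an unadjusted p under 0.05, 0 by voom) and a median log2 difference of 0.34. Higher calls were 40% of the 15, beside 5.62% of all tested genes, of which 7.36% were called lower. IER3, an immediate early gene that modulates apoptosis, ranged from 10.5 to 12.0 RPKM in the FN1 3'-UTR libraries and from 4.33 to 5.60 RPKM in the controls, a log2 difference of 1.16 ± 0.10 (SE, limma, adjusted p = 0.00218). CD83, a surface protein of activated antigen-presenting cells, ranged from 1.29 to 1.80 against 0.623 to 0.826 RPKM (log2 difference 1.06, adjusted p = 0.011). FAS, the death receptor, ranged from 4.34 to 4.79 against 3.07 to 3.36 RPKM (log2 difference 0.48, adjusted p = 0.00647). These 3 calls were kept without any 1 library. TNFAIP2, first described as a TNF-induced gene, had 70 against 24 reads (log2 difference 1.07, adjusted p = 0.0452) and lost its call in all 6 such fits, reaching 0.132 without control replicate 2. The other 9 tested genes of this list, among them the adhesion genes ICAM1 and VCAM1 and the antioxidant gene SOD2, were not called.

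**Figure D3:**
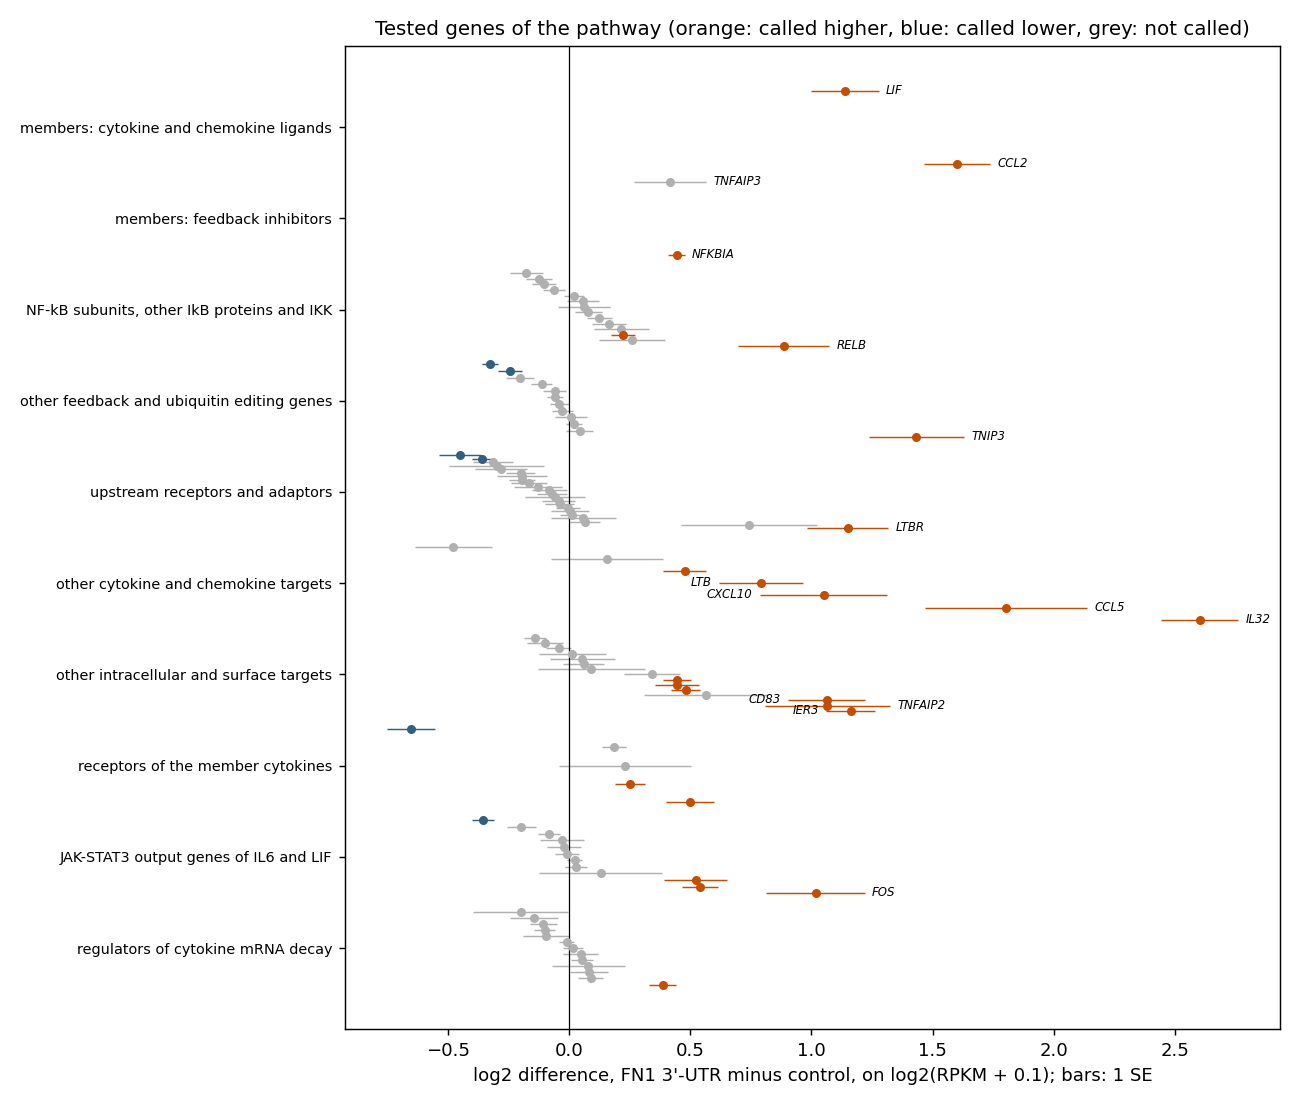
Log2 difference, FN1 3'-UTR minus control, on log2(RPKM + 0.1), for each tested gene of the 2 member lists and the 8 pathway lists, with bars of 1 SE. Orange marks genes called higher, blue genes called lower and grey genes not called, and the names mark members and called genes with large positive differences. IL32 (2.60) and CCL5 (1.80) are farthest right, and CCL5 reached the filter on low values in only 1 control library. The 14 subunit, IkB and IKK genes are close to 0 with a median of 0.07, apart from RELB (0.89).

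The receptors for the members were mostly low. CXCR1 and the decoy receptor IL1R2 had 0 reads in all 6 libraries, and CCR2, the receptor of CCL2, had 1 read in all. Of 5 tested genes of the receptor list, 2 (40%) were called higher and 1 (20%) lower, beside 5.62% and 7.36% of all tested genes. The list included OSMR, whose ligand oncostatin M is not a member. CXCR2, with 26 reads in the FN1 3'-UTR libraries and 23 in the controls, was not called (limma, adjusted p = 0.632). IL6R, the specific receptor of IL-6, was lower at 0.493 to 0.520 against 0.825 to 0.887 RPKM, a log2 difference of -0.65 ± 0.10 (SE, limma, adjusted p = 0.0116). Its call was kept in 5 of 6 fits without a library, and the adjusted p was 0.0522 without control replicate 2. OSMR, the oncostatin M receptor, ranged from 1.31 to 1.60 against 0.959 to 0.980 RPKM (log2 difference 0.50, adjusted p = 0.0246), and LIFR, the receptor of LIF, from 1.93 to 1.95 against 1.56 to 1.67 RPKM (log2 difference 0.25, adjusted p = 0.0467). OSMR kept its call in 1 of the 6 fits and LIFR in none, with adjusted p of 0.0865 and 0.137 without control replicate 2. IL6ST, which encodes the shared subunit gp130, had a log2 difference of 0.19 and an adjusted p of 0.0568.

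Of 12 genes of the JAK-STAT3 axis through which IL-6 and LIF act, 3 were called higher and 1 lower, with a median log2 difference of 0.01. These were 25% and 8.33% of the list, beside 5.62% and 7.36% of all tested genes. PIM1, a kinase induced by STAT3, ranged from 2.38 to 2.63 against 1.62 to 1.84 RPKM (log2 difference 0.54 ± 0.08, SE, limma, adjusted p = 0.00939), a call kept in every alternative. SOCS3, the feedback inhibitor of gp130 signaling, ranged from 2.07 to 2.59 against 1.42 to 1.85 RPKM (log2 difference 0.52, adjusted p = 0.0477), and FOS from 0.497 to 0.683 against 0.166 to 0.292 RPKM (log2 difference 1.02, adjusted p = 0.0257). SOCS3 and FOS each kept the call in 1 of the 6 fits without a library, reaching 0.144 without control replicate 2 and 0.0827 without FN1 3'-UTR replicate 2. MYC was lower, at 78.4 to 81.9 against 97.4 to 109 RPKM (log2 difference -0.35, adjusted p = 0.00733), and STAT3 itself had a log2 difference of 0.03 (adjusted p = 0.73). Among 13 regulators of cytokine mRNA decay, none was called lower by limma, and 0 were lower at an unadjusted p under 0.05 or by voom. Only 1 (7.69%, beside 5.62% of all tested genes) was called higher. This was ZFP36L1, at 5.09 to 5.57 against 3.83 to 4.21 RPKM (log2 difference 0.39, adjusted p = 0.0108), kept in 5 of 6 fits and at 0.0504 without control replicate 2.

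**Figure D4:**
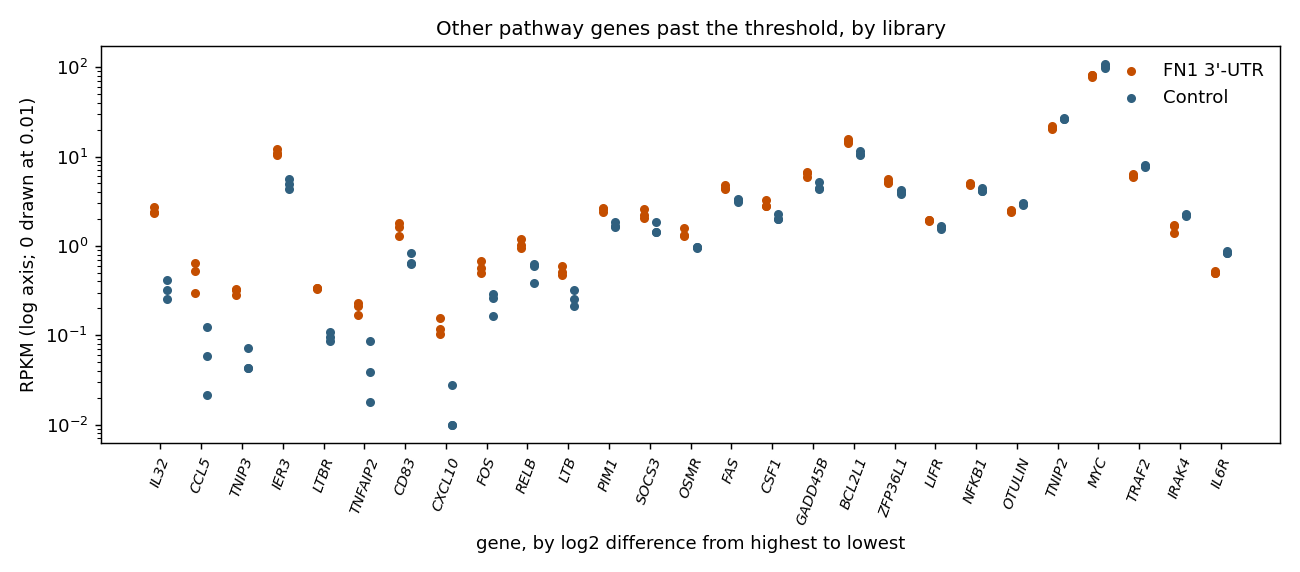
RPKM on a log axis of the 27 pathway genes other than members that were called, ordered from the highest to the lowest log2 difference, with FN1 3'-UTR libraries in orange and control libraries in blue (values of 0 are drawn at 0.01). The groups do not overlap for any of them, but the genes were picked by their calls, so this adds no support. Over all tested genes, every FN1 3'-UTR library was above every control library for 14.3% and below for 21.7%. Several genes with large differences, such as CCL5, TNIP3 and CXCL10, have control values near or below 0.1 RPKM.

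For each called member the tested genes with the most similar pattern were found by the root mean square difference over the 6 libraries, after each gene was centred on its own mean log2(RPKM + 0.1), among 17222 other genes with at least 10 reads in every library. For CCL2 they were H19 (0.11 on the log2 scale) and TGM1 (0.11), for LIF MYOF (0.09) and CDH13 (0.09), and for NFKBIA LINC00623 (0.03) and TPM4 (0.03). None of these 6 genes is on the pathway lists.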

How the data were processed

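RNA from HGC27-FN1 3'-UTR cells (n = 3 libraries) and HGC27-control cells (n = 3) was sequenced from a stranded mRNA library kit. The submitters' processing notes name Trimmomatic 0.36, STAR 2.5.3a, featureCounts of Subread 1.5.1 and GRCh38. The authors deposited 1 table of RPKM per library. RPKM times exon length gave whole reads for 100% of values (tolerance 0.01), which gave the depths. Whether strand or shared reads were used in counting, and whether duplicates were removed, is not given in the sources used here.

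The 23299 genes that reached an RPKM of 0.1 in at least 3 libraries were tested by limma 3.58.1 (R 4.3.3; lmFit and eBayes with trend) on log2(RPKM + 0.1), two-sided, with Benjamini-Hochberg adjustment over all tested genes and a call at an adjusted p under 0.05. Fold changes on this scale understate those of low genes. In simulated data, 154 of 194 tested genes changed 4-fold and 24 of 23116 unchanged genes were called. In a run with no gene changed, 10 of 23325 were called, all of them false. In the first run the 24 false calls beside 154 true ones made a share above the threshold of 0.05. Both runs used a single dispersion of 0.02, and changes smaller than 4-fold were not simulated. Intervals of read ratios are exact (conditional binomial, 95%) and cover counting error only. Python 3.11.15, pandas 2.3.3 and matplotlib 3.10.9 were used. Alternatives were pseudocounts of 1 and 0.01, no filter, a filter at RPKM of 1, median-ratio scaling, voom on recovered reads, a replicate block and leaving out each library.

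Members and gene lists were chosen with earlier results of these data known. Named genes were the members, NFKB1, RELA, CXCL8, TNF and IL1B, and in each list up to 4 called genes with the largest differences; other genes were named after their values were seen. 3'-UTRs were taken from the GENCODE 29 transcript with the longest coding sequence.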

Additional observations from a re-analysis of the deposited data

How the results depend on the processing

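The calls of CCL2, LIF and NFKBIA kept direction and side of the threshold in every alternative that tested them, with log2 differences from 1.25 to 1.77, 0.42 to 1.43 and 0.42 to 0.48 and adjusted p up to 0.0184, 0.0397 and 0.0203 in limma. TNFAIP3 passed only with voom on recovered reads (0.52, the cause was not tested), and its adjusted p ranged from 0.0178 to 0.265. With RPKM of at least 1 required, LIF and TNFAIP3 were not tested. Over all genes, voom called 2056 higher and 3227 lower. Leaving out 1 library, so that fewer libraries were fitted, called 472 to 901 higher and 431 to 1010 lower. Both counts were lowest without control replicate 2 (the cause was not tested). In the pathway lists voom called 13 lower (the cause was not tested), and leaving out 1 library 8 to 15 higher and 3 to 8 lower. No call of a named gene changed direction under any alternative. The replicate numbers were not taken to pair the libraries, since correlations of same-numbered deviations were 0.0024, 0.021 and 0.01, although each library correlated best with its own number. With a replicate block, 564 genes were called higher and 598 lower over all genes, and 7 and 3 in the pathway lists. LTBR and CD83, called without any 1 library, were not called with the block (adjusted p = 0.0556 and 0.0562). Of 27 called pathway genes, 9 were called in every alternative that tested them. Depth limits CXCL1, CXCL2, CXCL3, IL6 and IL1A, whose reads do not allow a difference to be measured.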

Other observations

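Several receptors of NF-kB activating signals were close to the detection limit, and others were not. TLR2 had 0 reads in the FN1 3'-UTR libraries and 1 in the control libraries, TLR5 had 6 in each group, and IL1R1, the signaling receptor of IL-1, had 4 and 9. TNFRSF1B, the second TNF receptor, had 15 reads in the FN1 3'-UTR libraries and 2 in the control libraries, at 0.0321 to 0.0806 against 0 to 0.0117 RPKM, and was too low to be tested. TNFRSF1A, the main TNF receptor, was measured well, at 4.70 to 5.59 against 5.34 to 5.73 RPKM, and was not called (log2 difference -0.08, adjusted p = 0.514 in limma). These genes were named after their values were seen.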
